A study of Mus musculus with 27 samples.

Results

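The ligands, receptors and SMAD proteins of transforming growth factor-beta (TGF-beta) signalling were examined in single nuclei of the mouse hippocampus. The members were chosen by name: the ligands Tgfb1, Tgfb2 and Tgfb3, the receptors Tgfbr1 and Tgfbr2, the signal carriers Smad2 and Smad3, and the inhibitor Smad7. They are 8 of the 31053 genes in the count matrices. Single-nucleus RNA-seq was performed on hippocampi of 27 mice aged 8 to 10 months, with 1 library per mouse and 16 male and 11 female mice. The mice were sorted by the P301S tau transgene, in which the mouse Prnp promoter drives human tau carrying a dementia-linked mutation, and by the number of intact copies of Cgas, which encodes a sensor of cytosolic DNA. The groups without the transgene were Cgas+/+ (n = 5, 3 male), Cgas+/- (n = 2, both male) and Cgas-/- (n = 2, both male), and the groups with it were P301S Cgas+/+, P301S Cgas+/- and P301S Cgas-/- (n = 6 each, 3 male and 3 female). All of the groups came from crosses of the tau and Cgas lines, the Cgas alleles were constitutive, and the labels name no treatment.

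TGF-beta ligands are secreted in a latent form and released outside the cell. An active ligand joins the type II receptor (Tgfbr2), which activates the type I receptor (Tgfbr1), and this receptor phosphorylates SMAD2 and SMAD3, which enter the nucleus with SMAD4. SMAD7 is an inhibitory SMAD that is itself a target of the pathway and blocks the type I receptor. In the brain, the pathway is best known for keeping microglia, the resident immune cells, in their homeostatic state.

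RefSeq promoter windows (GRCm38.p6, from 250 bases before to 50 bases after the start of transcription) were found for 5 of the 8 members. Windows are printed for the 2 members whose microglial level differed with the transgene, Tgfb1 and Tgfbr2, and, for comparison, for Tgfb2, which was found mainly outside microglia. They lie at chr7:25686752-25687051 (plus strand), chr9:116175314-116175613 (minus strand) and chr1:186705940-186706239 (minus strand), and each covers the start of its gene. Capitals mark 4 motifs on either strand: the GC box GGGCGG, the PU.1-type core GAGGAA, the SMAD core CAGAC and the TATA box TATAAA.
Tgfb1: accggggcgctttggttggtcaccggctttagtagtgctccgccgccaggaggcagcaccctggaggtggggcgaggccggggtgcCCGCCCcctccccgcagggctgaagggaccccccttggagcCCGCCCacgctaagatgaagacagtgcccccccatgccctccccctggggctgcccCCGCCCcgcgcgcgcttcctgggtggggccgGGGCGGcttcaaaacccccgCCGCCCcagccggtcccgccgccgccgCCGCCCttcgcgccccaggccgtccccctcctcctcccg
Tgfbr2: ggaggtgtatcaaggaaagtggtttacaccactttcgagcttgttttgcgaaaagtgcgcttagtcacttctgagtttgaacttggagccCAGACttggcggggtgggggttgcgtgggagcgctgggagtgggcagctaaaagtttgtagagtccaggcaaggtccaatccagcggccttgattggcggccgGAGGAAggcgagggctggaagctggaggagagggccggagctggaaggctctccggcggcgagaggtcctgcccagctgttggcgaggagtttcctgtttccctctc
Tgfb2: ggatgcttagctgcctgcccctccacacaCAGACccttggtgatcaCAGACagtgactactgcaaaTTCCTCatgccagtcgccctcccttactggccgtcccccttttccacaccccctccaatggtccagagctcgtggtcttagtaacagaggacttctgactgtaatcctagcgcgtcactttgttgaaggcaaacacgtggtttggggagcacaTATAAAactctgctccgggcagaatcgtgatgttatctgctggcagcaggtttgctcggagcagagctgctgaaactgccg

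The Tgfb1 window was 77.0% G or C and held 6 GC boxes, with their first bases at -164, -123, -67, -36, -16 and 11 from the start of transcription, against a median of 52.7% G or C over 32851 promoters. The Tgfbr2 window held the PU.1-type core at base -57 and the SMAD core at base -160. The Tgfb2 window held a TATA box at base -31, the PU.1-type core at base -184 and the SMAD core at bases -221 and -204, of which the latter was also the 1 match to the longer form CAGACA. Among all promoters of this length, 35.7% held the GC box, 28.3% the PU.1-type core, 49.6% the SMAD core, 21.0% its longer form and 13.6% the TATA box. Of 15 motifs searched on both strands, the other 10 had no match in these windows: the longer PU.1-type form GAGGAAGT, the ETS motif GGAAGT inside it, the SMAD palindrome GTCTAGAC, the AP-1 site TGANTCA, the homeodomain-type ATTAA, the RUNX core TGTGGT, the C/EBP motif TTGCNNAAT, the EGR site GCGGGGGCG, and the MEF2 and IRF motifs. These 10 were held by 0.213% to 27.1% of promoters, and a match describes letters only.

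A total of 204852 nuclei were kept, and the libraries held 46091490 to 79484316 unique molecular identifiers (UMIs, each a counted RNA molecule) over 7246 to 14770 barcodes. Nuclei were grouped into classes by marker genes after the 8 members had been left out of the clustering, and each class is called "like" a cell type because no annotation of nuclei was used. Levels are UMIs of a gene per 1000000 UMIs of the class (CPM), computed per mouse. In microglia-like nuclei, Cgas (listed under its older symbol Mb21d1) was at 35.4 ± 2.4 CPM in the libraries labelled Cgas+/+, 19.1 ± 4.7 in Cgas+/-, 27.3 ± 8.1 in Cgas-/-, 37.9 ± 11.7 in P301S Cgas+/+, 42.7 ± 11.2 in P301S Cgas+/- and 51.4 ± 7.0 in P301S Cgas-/- (SD, n as above). The level did not follow the Cgas labels, and whether the reads fall outside the deleted part of the gene was not tested, so Cgas groups are given as the libraries labelled so. The share of hippocampal subfields among excitatory neuron-like nuclei ran from 3.70% to 94.1% across libraries, and it was under 10% in P301S Cgas+/- replicate 1, P301S Cgas-/- replicate 2 and P301S Cgas-/- replicate 6. Pairs of libraries shared 8 to 48 barcodes.

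Tgfb1 (ENSMUSG00000002603, chr7:25687002-25705077, plus strand, GRCm38) encodes the ligand best known for immune regulation, and it was concentrated in microglia-like nuclei. Its level there was 236 ± 46 CPM (SD, n = 27 mice, range 158 to 329). It was next highest in the vascular classes, at 52.8 ± 23 CPM in pericyte and smooth muscle-like nuclei (n = 22) and 42.0 ± 26.6 in endothelial-like nuclei (n = 21), which did not differ from each other (adjusted p = 0.198, permutation test by sign flips within mice). Microglia-like nuclei were above pericyte and smooth muscle-like nuclei in 22 of 22 mice (adjusted p = 4.44e-05, permutation test). In astrocyte-like nuclei it was at 1.49 ± 1.12 CPM, and in oligodendrocyte-lineage and neuronal classes the means were between 0.205 and 0.595 CPM.

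Microglia-like nuclei made up 5.56% of all nuclei and held 85.5% of the 5237 Tgfb1 UMIs. To set low levels in other classes on a scale, 9 marker genes of microglia were measured in the same way. Relative to microglia-like nuclei, the markers were at 0.481% to 4.45% in endothelial-like nuclei, where Tgfb1 was at 17.8%. In neuronal classes Tgfb1 was at 0.0867% to 0.161% of its microglial level, within the range of the same markers, and whether these UMIs came from the neurons was not tested.

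Tgfb2 (ENSMUSG00000039239, chr1:186622792-186705989, minus strand) encodes a ligand made by many cell types in development, and its pattern was unlike that of Tgfb1. Among the 11 ranked classes it was highest in endothelial-like nuclei at 211 ± 84 CPM (n = 21), followed by CA3 neuron-like nuclei at 109 ± 31 (n = 22), dentate granule neuron-like nuclei at 85.3 ± 19.0 (n = 26) and astrocyte-like nuclei at 82.3 ± 15.2 (n = 27). Endothelial-like nuclei exceeded CA3 neuron-like nuclei in 14 of 16 mice (adjusted p = 0.0171, permutation test), and CA3 exceeded dentate granule neuron-like nuclei in 16 of 22 (adjusted p = 0.0171, permutation test), whereas dentate granule and astrocyte-like nuclei did not differ beyond their spread (adjusted p = 0.835, permutation test). It was at 34.2 ± 21.4 CPM in CA1 neuron-like nuclei but at 6.71 ± 1.71 in cortical neuron-like nuclei. Choroid plexus-like nuclei, which reached the required 20 nuclei in 10 mice and were not ranked, held 344 ± 43 CPM. Excitatory neuron-like nuclei, 38.6% of all nuclei, held 60.0% of all Tgfb2 UMIs. Their mean level was 37.5 CPM, against 39.4 CPM in all nuclei (n = 27 each). The share thus does not mark a concentration of Tgfb2 in this class.

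Tgfb3 (ENSMUSG00000021253, chr12:86056745-86079041, minus strand), the third ligand, was at low levels in every ranked class. Pericyte and smooth muscle-like nuclei were at 17.6 ± 16.1 CPM (n = 22), oligodendrocyte-like nuclei at 15.9 ± 3.3 and inhibitory neuron-like nuclei at 14.8 ± 2.7 (n = 27 each), and these neighbours did not differ (adjusted p = 0.108 and 0.286, permutation tests). Inhibitory neuron-like nuclei were above oligodendrocyte progenitor-like nuclei, at 8.08 ± 3.50 CPM, in 25 of 27 mice (adjusted p = 4.44e-05, permutation test). The lowest mean, 1.49 ± 1.44 CPM, was in microglia-like nuclei.

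Both receptors were highest in microglia-like nuclei. Tgfbr1 (ENSMUSG00000007613, chr4:47353222-47414931, plus strand) was at 2361 ± 329 CPM there (n = 27, range 1673 to 3069) and at 104 ± 40 in pericyte and smooth muscle-like nuclei, with microglia-like nuclei higher in 22 of 22 mice (adjusted p = 4.44e-05, permutation test). Oligodendrocyte progenitor, oligodendrocyte, dentate granule neuron and astrocyte-like nuclei lay between 41.7 and 65.2 CPM. Within the neurons, dentate granule neuron-like nuclei were at 41.8 ± 11.5 CPM, against 5.27 ± 2.09 in CA1, 4.53 ± 5.48 in CA3 and 7.35 ± 2.34 in cortical neuron-like nuclei. Those 3 values were 0.223%, 0.192% and 0.311% of the microglial level of Tgfbr1. The 9 microglia markers had a median of 0.119% and a highest value of 0.946% in CA1, 0.224% and 1.13% in CA3 and 0.143% and 1.02% in cortical neuron-like nuclei. In dentate granule neuron-like nuclei Tgfbr1 was at 1.77% (marker median 0.184%, highest 1.53%), in astrocyte-like nuclei at 1.77% (0.310% and 3.33%) and in inhibitory neuron-like nuclei at 0.444% (0.167% and 1.12%). The source of Tgfbr1 UMIs where it lay within the range of the markers was not tested. Fibroblast-like nuclei, unranked with 14 mice, were at 277 ± 94 CPM.

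Tgfbr2 (ENSMUSG00000032440, chr9:116084293-116175360, minus strand), the receptor that binds the ligand, was at 738 ± 172 CPM in microglia-like nuclei (n = 27) and at 227 ± 84 in endothelial-like nuclei (n = 21), a difference of the same sign in 21 of 21 mice (adjusted p = 4.44e-05, permutation test). Oligodendrocyte-like nuclei followed at 108 ± 52 CPM, or 14.6% of the microglial level, where the 9 microglia markers were at 0.133% to 1.45%. Oligodendrocyte progenitor-like nuclei were far lower, at 5.94 ± 4.08 CPM, which with the levels in CA1, CA3, dentate granule and cortical neuron-like nuclei lay within the range of the microglia markers. Among the unranked classes, choroid plexus-like nuclei were at 311 ± 24 CPM (n = 10) and ependymal-like nuclei at 251 ± 68 (n = 15). Microglia-like nuclei held 63.6% of Tgfbr1 UMIs and 39.7% of Tgfbr2 UMIs.

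**Figure D1:**
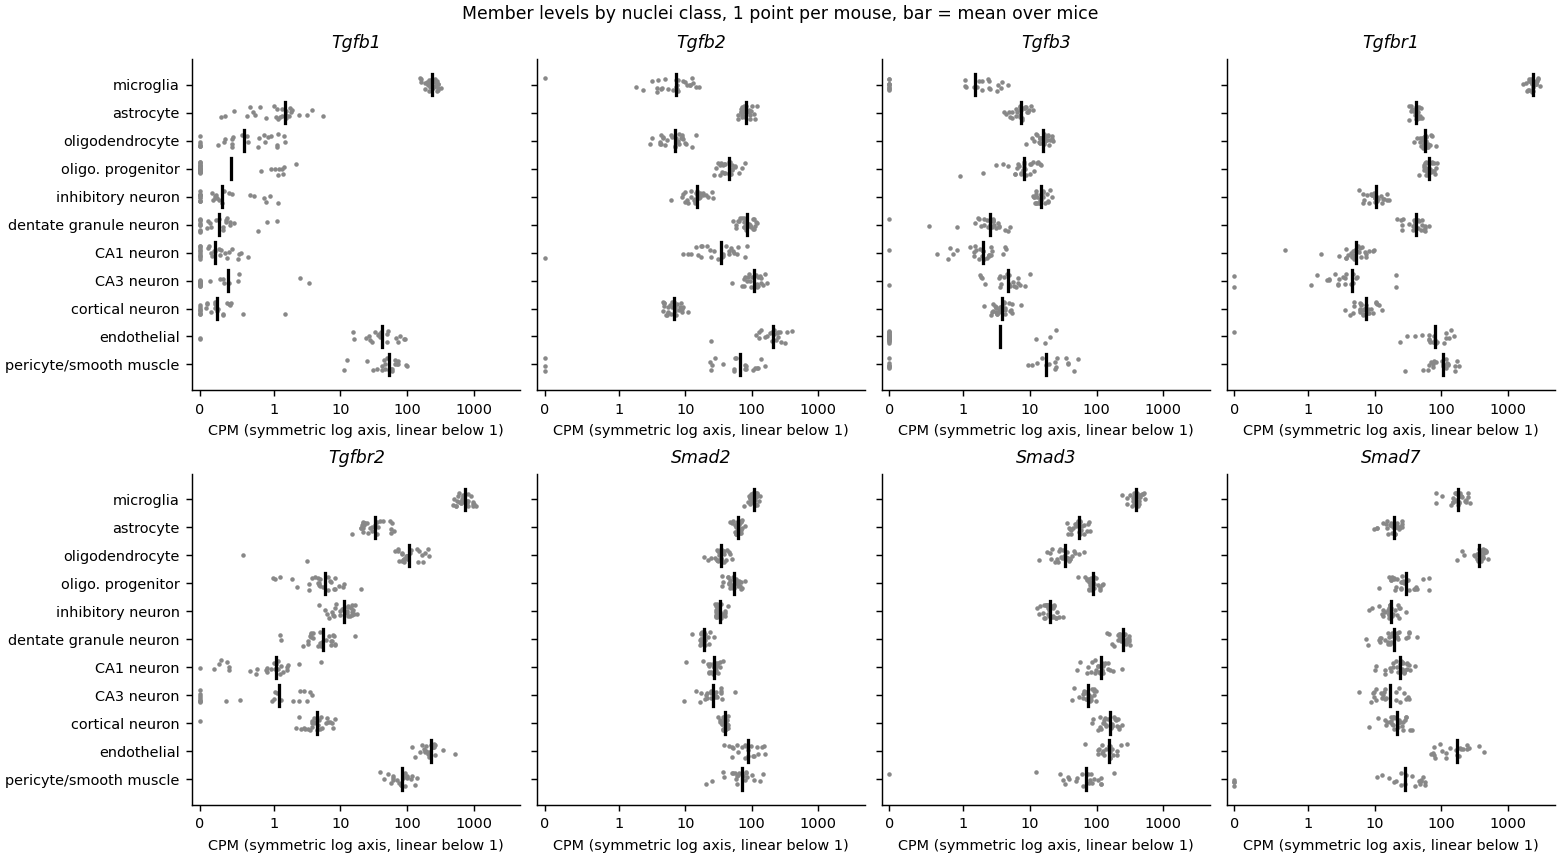
Level of each member (CPM, symmetric log axis that is linear below 1) in the 11 ranked classes, with 1 grey point per mouse and a black bar at the mean over mice. Tgfb1, Tgfbr1 and Tgfbr2 reach 236, 2361 and 738 CPM in microglia-like nuclei, Tgfb2 is highest in endothelial-like nuclei at 211 CPM, and Smad7 is highest in oligodendrocyte-like nuclei at 371 CPM.

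The SMADs were spread over more classes than the receptors. Smad2 (ENSMUSG00000024563, chr18:76241580-76310963, plus strand), a carrier of the signal to the nucleus, ranged from 18.9 ± 2.7 CPM in dentate granule neuron-like nuclei to 107 ± 13 in microglia-like nuclei. Microglia and endothelial-like nuclei (87.9 ± 35.4 CPM) differed in 13 of 21 mice in the direction of microglia (adjusted p = 0.0319, permutation test). Smad3 (ENSMUSG00000032402, chr9:63646767-63757994, minus strand), the other carrier, was at 396 ± 70 CPM in microglia-like nuclei and at 245 ± 48 in dentate granule neuron-like nuclei, lower in each of 26 mice (adjusted p = 4.44e-05, permutation test). Dentate granule neuron-like nuclei in turn exceeded cortical neuron-like nuclei, at 157 ± 42 CPM, in 26 of 26 mice (adjusted p = 4.44e-05, permutation test). Inhibitory neuron-like nuclei were lowest, at 19.9 ± 4.3 CPM. Dentate granule neuron-like nuclei were thus the lowest ranked class for Smad2 and next to the highest for Smad3.

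Smad7 (ENSMUSG00000025880, chr18:75367529-75395935, plus strand), the inhibitor, was highest in oligodendrocyte-like nuclei at 371 ± 78 CPM, above microglia-like nuclei (179 ± 46 CPM) in 27 of 27 mice (adjusted p = 4.44e-05, permutation test). Microglia and endothelial-like nuclei (172 ± 98 CPM) did not differ (adjusted p = 0.475, permutation test). Oligodendrocyte progenitor-like nuclei were at 29.6 ± 13.8 CPM and the remaining ranked classes between 16.8 and 28.3 CPM. Oligodendrocyte-like nuclei, 22.2% of all nuclei, held 57.8% of Smad7 UMIs, and excitatory neuron-like nuclei, 38.6% of all nuclei, held 81.8% of Smad3 UMIs. The Smad3 level in excitatory neuron-like nuclei was 175 ± 32 CPM, against 136 ± 23 in all nuclei. Of the 80 pairs of neighbouring classes over the 8 members, 40 differed at an adjusted p under 0.05, and the smallest p that the sign flips can give is 1e-05. The vascular classes had a median of 40 to 49 nuclei per library, so their levels are coarse.

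For each member, the genes with the most similar pattern were found by Pearson correlation of the mean log2(CPM + 1) over the 11 ranked classes among 14563 genes. The classes share libraries and differ in depth, and the coefficients are descriptions. The nearest were Gm12185 (r = 0.99), 9930111J21Rik2 and Trim14 for Tgfb1, Tead1 (r = 0.86), 9530026P05Rik and Zfp423 for Tgfb2, and Caprin2 (r = 0.88), Cadm4 and Rhobtb3 for Tgfb3. For the receptors they were Ythdf2 (r = 0.99), Akap10 and Hnrnpul1 for Tgfbr1 and Rnf4 (r = 0.99), Tmf1 and Adipor1 for Tgfbr2. For the SMADs they were Etv6 (r = 0.98) and H2-T22 for Smad2, Mov10 (r = 0.86), Rnf169 and Mark2 for Smad3, and Ltn1 (r = 0.97), Itsn2 and Trmt13 for Smad7. Among the members themselves, Tgfb1 was close to Tgfbr2 (r = 0.85), Smad2 (r = 0.82) and Tgfbr1 (r = 0.81), and Tgfb3 ran opposite to Smad3 (r = -0.88).

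With the levels described, the groups were compared in 8 classes by edgeR's quasi-likelihood test on UMI sums per mouse, with p-values adjusted (Benjamini-Hochberg) over all genes of the class and a call at an adjusted p under 0.05. The effect of the transgene was first asked with both copies of Cgas present, P301S Cgas+/+ against Cgas+/+. Of 53 tests of a member in a class, 0 were called, against 0.0133% of all tests in this comparison (13 of 98064). Of these 53, 10 had an unadjusted p under 0.05, and 8 of them were higher in P301S Cgas+/+, where 6.11% of all tests had such a p (15.7% in microglia-like nuclei). DESeq2 also called 0.

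The values behind these 10 lay mostly in glia, where a larger share of all genes also had an unadjusted p under 0.05. That share was 15.7% in microglia-like, 11.7% in astrocyte-like, 8.60% in oligodendrocyte progenitor-like and 6.73% in oligodendrocyte-like nuclei. In the neuronal classes it was 1.45% to 4.02%. In microglia-like nuclei the log2 fold change was -0.41 ± 0.14 (SE) for Tgfb1 (edgeR adjusted p = 0.139), 0.48 ± 0.17 for Tgfbr2 (edgeR adjusted p = 0.162) and 0.28 ± 0.12 for Smad2 (edgeR adjusted p = 0.258). In oligodendrocyte-like nuclei it was 0.47 ± 0.13 for Tgfbr1 and 0.63 ± 0.23 for Smad3 (edgeR adjusted p = 0.679 for both). Tgfbr2 in astrocyte-like nuclei was at 42.8 CPM in P301S Cgas+/+ and 22.3 CPM in Cgas+/+, a log2 fold change of 0.88 ± 0.30 (edgeR adjusted p = 0.266). The remaining 4 were Tgfbr1 in inhibitory neuron-like nuclei (0.70 ± 0.19, edgeR adjusted p = 1.0), Smad3 in dentate granule neuron-like nuclei (-0.31 ± 0.12, edgeR adjusted p = 1.0), and Tgfb3 and Smad7 in oligodendrocyte progenitor-like nuclei (1.06 ± 0.39 and 0.76 ± 0.35, edgeR adjusted p = 0.430 and 0.564).

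All 18 P301S mice were then set against all 9 mice without the transgene, averaging over the Cgas labels, a comparison that shares its mice with the previous one. Each group counted equally in this average. A mouse of Cgas+/- or Cgas-/- (n = 2 each) thus weighed more than a mouse of Cgas+/+ (n = 5). The mean CPM values printed beside the fold changes are plain means over mice. Of 57 tests of a member in a class, 2 were called, both in microglia-like nuclei, against 1.93% of all tests (2030 of 105321) and 11.5% of tests in microglia-like nuclei (1121 of 9713). Of the 57, 12 had an unadjusted p under 0.05, 6 of them higher in P301S mice, where 13.4% of all tests had such a p. Tgfb1 fell and Tgfbr2 rose in the microglia-like nuclei of P301S mice. The remaining microglial members tested, Tgfbr1, Smad2, Smad3 and Smad7, had log2 fold changes between -0.09 and 0.05, and Tgfb2 and Tgfb3 were below the filter on low counts there.

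Tgfb1 in microglia-like nuclei was at 235, 283, 288, 287 and 259 CPM in the 5 Cgas+/+ mice, at 224 and 297 in Cgas+/-, and at 230 and 297 in Cgas-/-. The lowest, median and highest of the 6 mice were 158, 208 and 260 CPM in P301S Cgas+/+, 164, 208 and 329 in P301S Cgas+/-, and 185, 242 and 289 in P301S Cgas-/-. The groups overlapped, and the highest value of all 27 mice was in a P301S Cgas+/- mouse. The means were 221 ± 46 CPM (SD, n = 18) with and 267 ± 30 (n = 9) without the transgene, and the fitted log2 fold change was -0.38 ± 0.10 (SE, edgeR adjusted p = 0.0183). The fit holds sex as a term, since 7 of the 9 mice without the transgene and 9 of the 18 with it were male.

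Tgfbr2 in microglia-like nuclei was at 555, 668, 499, 507 and 681 CPM in Cgas+/+, at 649 and 547 in Cgas+/-, and at 599 and 582 in Cgas-/-. The lowest, median and highest were 604, 695 and 1106.5 CPM in P301S Cgas+/+, 550, 812 and 989 in P301S Cgas+/-, and 705, 830 and 1006 in P301S Cgas-/-. All 6 P301S Cgas-/- mice lay above the 9 mice without the transgene, whereas the lowest mice of the other P301S groups overlapped with them. How many other genes set this group apart in the same way was not counted. Of all genes in this class, 25.5% had an unadjusted edgeR p under 0.05 between P301S mice and the others. For Tgfbr2, P301S Cgas-/- minus P301S Cgas+/+ was 0.06 ± 0.16 (log2, SE). The means of Tgfbr2 were 814 ± 158 CPM with (n = 18) and 587 ± 67 without the transgene (n = 9), and the log2 fold change between them was 0.49 ± 0.13 (SE, edgeR adjusted p = 0.0122).

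Both calls depended on the mice of the small groups. In the 23 mice without Cgas+/- and Cgas-/-, the log2 fold changes were -0.34 for Tgfb1 (edgeR adjusted p = 0.0932) and 0.49 for Tgfbr2 (edgeR adjusted p = 0.0650). Without Cgas+/- replicate 2 alone, the calls of both Tgfb1 (-0.29, edgeR adjusted p = 0.175) and Tgfbr2 (0.47, edgeR adjusted p = 0.0779) were lost, and Tgfb1 was also not called without Cgas-/- replicate 2 (-0.32, edgeR adjusted p = 0.0916) or without the sex term (-0.27, edgeR adjusted p = 0.111). Nor was Tgfb1 called with the hippocampal share as a term (-0.30, edgeR adjusted p = 0.166) or without the filter on low counts (-0.34, edgeR adjusted p = 0.0627). Tgfbr2 was called in both of these settings, at 0.60 and 0.55. The file headers give Cell Ranger 3.0.2 for 12 libraries, all from males, and 3.1.0 for 15. Within the libraries of each version, 3.0.2 and 3.1.0, the values were -0.38 and -0.31 for Tgfb1 and 0.35 and 0.60 for Tgfbr2, none of them called. With the version as a term in the fit of all 27 mice, both were called (Tgfb1 -0.37, edgeR adjusted p = 0.0358, and Tgfbr2 0.44, edgeR adjusted p = 0.0312). Cgas+/- and Cgas-/- mice occur only among the 3.0.2 libraries. Within 3.1.0 the only mice without the transgene were Cgas+/+ replicates 3, 4 and 5, so that fit compares fewer groups and has little power.

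Other contents of the microglia-like nuclei moved with the transgene as well. The summed level of 6 macrophage markers had a median of 111 CPM (range 3.73 to 379) in the 9 mice without the transgene and 28.3 CPM (0 to 114) in the P301S mice, in which Lyve1 was at 0. The summed level of the 9 microglia markers had medians of 11823 (10775 to 13410) and 10065 CPM (7693 to 12687), that of 9 excitatory neuron markers 681 (600 to 823) and 511 CPM (411 to 710), and that of 9 inhibitory neuron markers 519 (344 to 607) and 372 CPM (179 to 643). The sum of 7 fibroblast markers had medians of 37.3 (18.2 to 52.7) and 12.2 CPM (0 to 37.0). The medians were higher in P301S mice for 8 oligodendrocyte markers, at 316 (258 to 524) and 417 CPM (273 to 607), and for 7 endothelial markers, at 46.6 (30.5 to 91.6) and 70.4 CPM (9.49 to 263). The share of microglia-like nuclei per library was 2.92% to 8.86% without and 2.55% to 9.60% with the transgene. The part of these contents in the 2 differences was not tested.

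**Figure D2:**
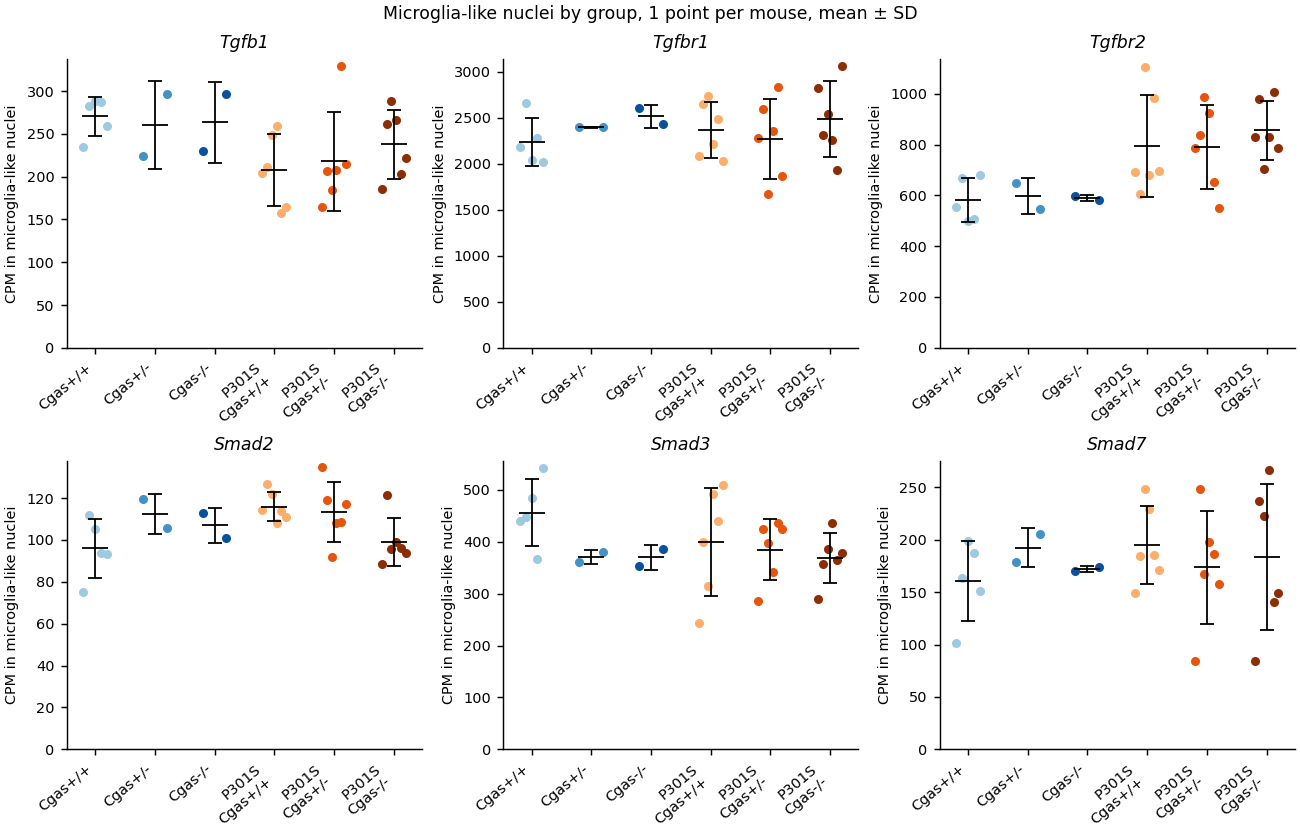
Level (CPM) of 6 members in microglia-like nuclei by group, with 1 point per mouse and the mean ± SD in black. The group means of Tgfb1 are 260.4 to 271 CPM without and 208 to 238 CPM with the transgene, and those of Tgfbr2 are 582 to 598 and 790 to 857 CPM. Pooled over the Cgas labels, the mice with and without the transgene overlap for all 6 members. For Tgfbr2, the P301S Cgas-/- group (705 CPM or more) lies above every mouse without the transgene (681 CPM or less). How many other genes do so was not counted.

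Outside microglia-like nuclei, 0 of the tests of a member were called in this comparison. The share of all genes called was 2.25% in excitatory neuron-like, 0.626% in dentate granule neuron-like, 0.0298% in CA1 neuron-like, 0.0225% in inhibitory neuron-like, 2.76% in astrocyte-like, 0.0077% in oligodendrocyte-like and 0.312% in oligodendrocyte progenitor-like nuclei. Tgfb2 in oligodendrocyte-like nuclei was at 5.84 CPM in P301S mice and 9.5 CPM in the others, a log2 fold change of -0.89 ± 0.19 (edgeR adjusted p = 0.0552). Smad3 in the same nuclei was at 38.1 and 23.1 CPM (0.78 ± 0.18, edgeR adjusted p = 0.0697), and Tgfbr1 at 59.8 and 51.1 CPM (0.20 ± 0.10, edgeR adjusted p = 0.369). DESeq2 called 7 member tests in all, adding Tgfb2 and Smad3 in oligodendrocyte-like, Tgfbr1 and Smad3 in dentate granule neuron-like and Tgfbr2 in astrocyte-like nuclei. The level of Tgfb2 in oligodendrocyte-like nuclei was low beside 85.3 CPM in dentate granule and 109 CPM in CA3 neuron-like nuclei. The share of these hippocampal neurons, given below, also differed between the groups. Whether the Tgfb2 UMIs of this class came from oligodendrocytes was not tested.

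Tgfbr2 in astrocyte-like nuclei was at 21.0, 20.3, 22.1, 22.1 and 25.8 CPM in Cgas+/+, at 14.7 and 22.8 in Cgas+/-, and at 21.7 and 27.4 in Cgas-/-. The lowest, median and highest were 23.4, 41.9 and 58.2 CPM in P301S Cgas+/+, 20.1, 27.6 and 63.2 in P301S Cgas+/-, and 25, 32.7 and 59.7 in P301S Cgas-/-. The mice without the transgene lay close together at the bottom of the range, and the P301S mice spread upward from it. The log2 fold change was 0.75 ± 0.22 (edgeR adjusted p = 0.0624).

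In dentate granule neuron-like nuclei, Tgfbr1 had a log2 fold change of -0.56 ± 0.14 (37.5 CPM in P301S mice and 48.5 in the others, edgeR adjusted p = 0.0512), Smad3 one of -0.31 ± 0.09 (edgeR adjusted p = 0.115) and Tgfbr2 one of 0.62 ± 0.25 (edgeR adjusted p = 0.295). Smad7 in oligodendrocyte progenitor-like nuclei had 0.55 ± 0.27 (edgeR adjusted p = 0.434). The members whose highest tested class has not yet been given stayed near 0: Tgfb2 in dentate granule neuron-like nuclei was at 0.07 ± 0.14 (edgeR adjusted p = 0.952), Tgfb3 in oligodendrocyte-like nuclei at 0.20 ± 0.15 (edgeR adjusted p = 0.614) and Smad7 there at 0.09 ± 0.17 (edgeR adjusted p = 0.888).

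**Figure D3:**
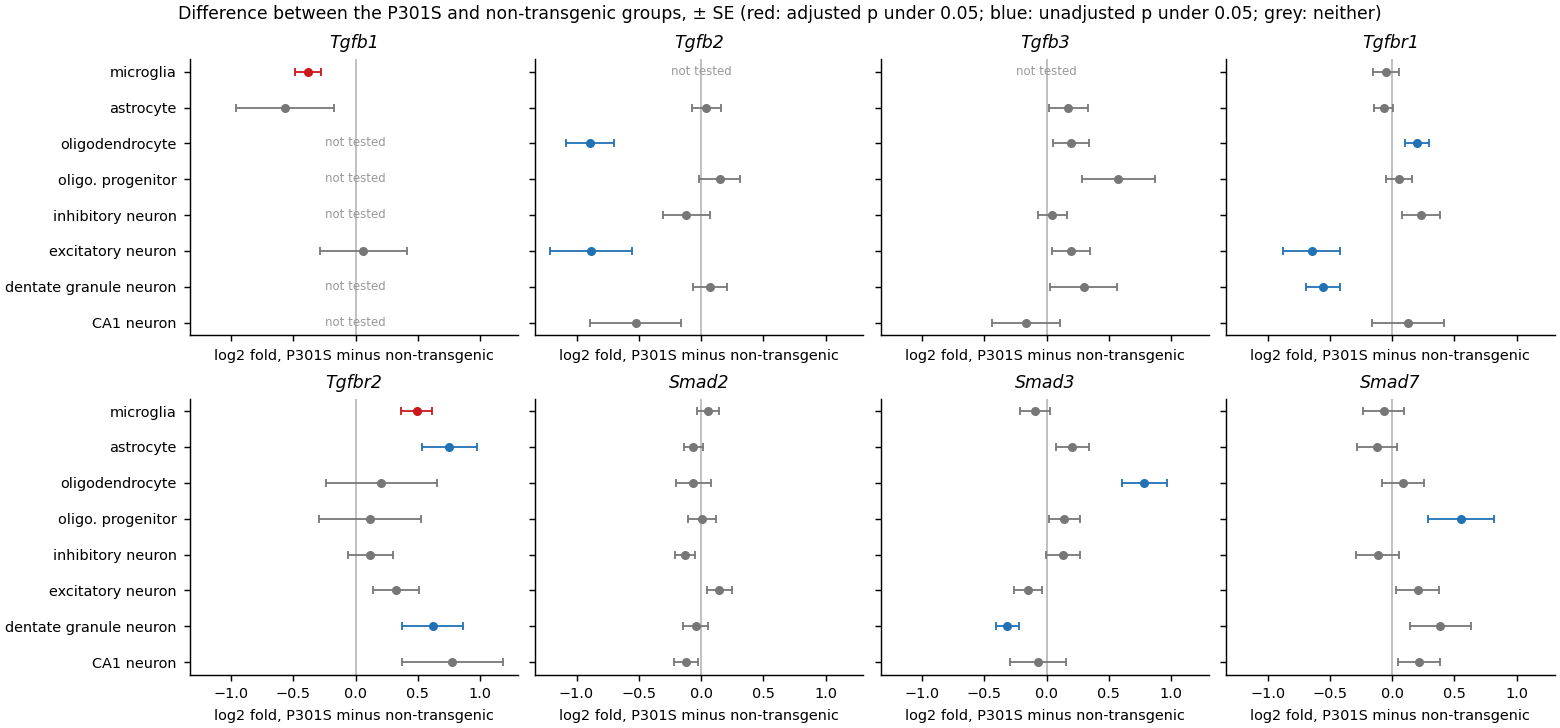
Log2 fold change ± SE of each member in each tested class, all P301S mice minus all mice without the transgene (edgeR, 27 mice). Red points have an adjusted p under 0.05, blue points an unadjusted p under 0.05 and grey points neither, and the 2 red points are Tgfb1 at -0.38 and Tgfbr2 at 0.49 in microglia-like nuclei.

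In all excitatory neuron-like nuclei pooled over subfields, Tgfb2 and Tgfbr1 had log2 fold changes of -0.89 ± 0.33 (edgeR adjusted p = 0.136) and -0.65 ± 0.23 (edgeR adjusted p = 0.120). Both genes were higher in dentate granule neuron-like than in cortical neuron-like nuclei, and the share of hippocampal subfields varied between libraries. The 3 libraries with a share under 10% had the lowest levels of Tgfb2, at 7.31 to 13.7 CPM, whereas their Tgfbr1, at 5.47 to 10.6 CPM, overlapped with that of other libraries. In P301S Cgas+/- replicate 1, where hippocampal subfields made up 3.70% of excitatory neuron-like nuclei, Tgfb2 was at 9.09 CPM and Tgfbr1 at 10.6 CPM, and in P301S Cgas+/+ replicate 4, where they made up 94.1%, the levels were 68.0 and 27.4 CPM. The median share was 48.2% in Cgas+/+, 64.3% in Cgas+/- and 87.7% in Cgas-/-, and 65.9% in P301S Cgas+/+, 35.1% in P301S Cgas+/- and 34.1% in P301S Cgas-/-. With the share as a term in the fit, the log2 fold changes were 0.04 for Tgfb2 (edgeR adjusted p = 0.993) and -0.03 for Tgfbr1 (edgeR adjusted p = 0.995), and neither was called with or without it.

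**Figure D4:**
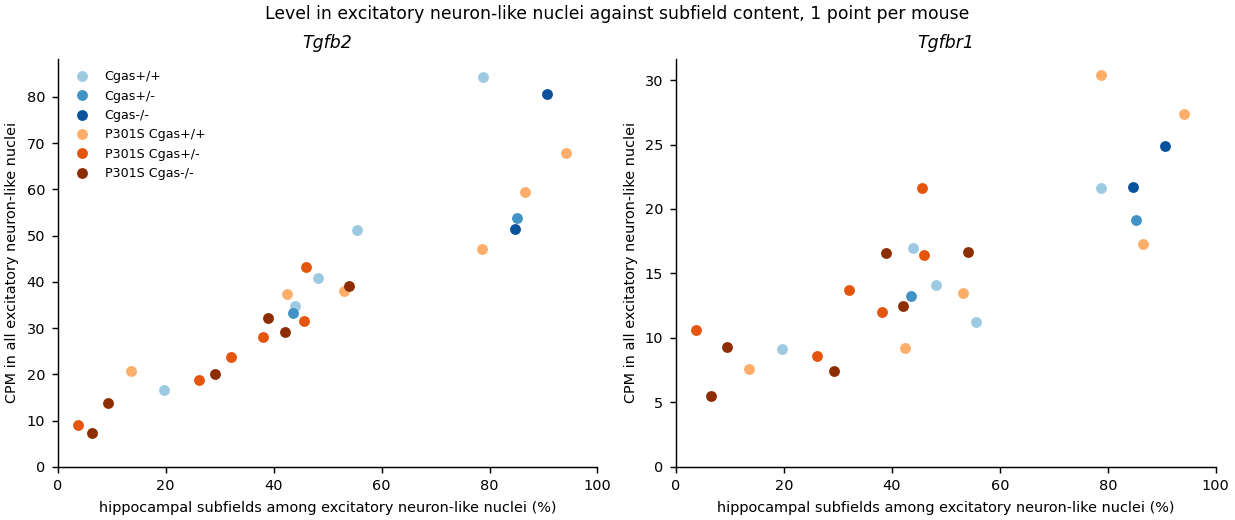
Level (CPM) of Tgfb2 and Tgfbr1 in all excitatory neuron-like nuclei against the percentage of these nuclei that belong to hippocampal subfields, with 1 point per mouse coloured by group. Tgfb2 runs from 7.31 CPM at a share of 6.39% to 84.3 CPM at 78.7%. Over the 27 mice the Pearson correlation with the share was 0.92 for Tgfb2 and 0.83 for Tgfbr1. At nearly equal shares near 78.7%, Tgfb2 was at 84.3 CPM in Cgas+/+ replicate 2 and at 47.1 CPM in P301S Cgas+/+ replicate 3, the library with the lowest median of UMIs per barcode (2225). The order was the other way between P301S Cgas+/+ replicate 5 (59.4 CPM at 86.5%) and Cgas+/- replicate 2 (53.9 CPM at 85.1%).

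The effect of Cgas genotype was asked among P301S mice, with P301S Cgas+/+ as the shared reference of both comparisons. For the libraries labelled P301S Cgas-/- against P301S Cgas+/+, 0 of 53 member tests were called, against 0% of all tests (0 of 98064), and 4 had an unadjusted p under 0.05, 1 of them higher, where 5.61% of all tests had such a p (13.6% in excitatory neuron-like nuclei). DESeq2 also called 0 of the member tests. These 4 were Smad2 in microglia-like nuclei (log2 fold change -0.26 ± 0.11, edgeR adjusted p = 1.0), Tgfb2 and Tgfbr1 in excitatory neuron-like nuclei (-0.99 ± 0.41 and -0.62 ± 0.30, edgeR adjusted p = 0.297 and 0.361) and Tgfbr2 in inhibitory neuron-like nuclei (0.51 ± 0.24, edgeR adjusted p = 0.837). The share of hippocampal subfields given above differed between these groups too, and with it as a term the value of Tgfb2 was -0.04 (edgeR adjusted p = 0.989) and that of Tgfbr1 turned to 0.07 (edgeR adjusted p = 0.980).

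For P301S Cgas+/- against P301S Cgas+/+, 0 of 53 were called, against 0.00102% of all tests (1 of 98064), and 3 had an unadjusted p under 0.05, 1 of them higher, where 5.04% of all tests had such a p (12% in excitatory neuron-like nuclei). DESeq2 again called 0 of the member tests. The 3 were Tgfb2 in excitatory neuron-like nuclei (-0.86 ± 0.41, edgeR adjusted p = 0.412, turning to 0.05 with the hippocampal share as a term), Smad2 in CA1 neuron-like nuclei (-0.35 ± 0.14, edgeR adjusted p = 1.0) and Tgfbr2 in inhibitory neuron-like nuclei (0.62 ± 0.24, edgeR adjusted p = 0.633).

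In microglia-like nuclei the values for the libraries labelled P301S Cgas-/- and P301S Cgas+/-, each minus P301S Cgas+/+, were not called for any member. Tgfb1 had log2 fold changes of 0.16 ± 0.13 and 0.05 ± 0.13, Tgfbr2 0.06 ± 0.16 and -0.04 ± 0.16, and Tgfbr1 0.04 ± 0.13 and -0.08 ± 0.13. Smad3 had -0.16 ± 0.16 and -0.08 ± 0.16. In oligodendrocyte-like nuclei Smad7 had -0.17 ± 0.22 and -0.13 ± 0.22 and Tgfb3 0.00 ± 0.16 and 0.10 ± 0.16, and in dentate granule neuron-like nuclei Tgfb2 had 0.18 ± 0.16 and 0.12 ± 0.16. For the transgene with both Cgas copies, Tgfbr1 and Smad3 in microglia-like nuclei had 0.08 ± 0.14 and -0.19 ± 0.17, Smad7 in microglia-like nuclei 0.25 ± 0.23, Smad7 and Tgfb3 in oligodendrocyte-like nuclei 0.23 ± 0.23 and -0.12 ± 0.17, and Tgfb2 in dentate granule neuron-like nuclei -0.30 ± 0.17.

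The other genes of the pathway were taken as 7 lists by role, of which the last, microglial genes that need TGF-beta, was tested in microglia-like nuclei only. Between all P301S mice and all others, 14 of 322 tests of these genes in a class were called (4.35%, against the 1.93% of all tests), 8 of them higher in P301S mice, whereas in each of the other 3 comparisons 0 of 310 were called. Of the 14, 9 were in microglia-like nuclei, where 45 pathway genes were tested, 20% of them called against the 11.5% of all genes. Of these 9, 6 fell and 3 rose, whereas of the 1121 calls among all genes of this class 402 fell and 719 rose.

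Among co-receptors and receptor partners in microglia-like nuclei, 2 of 6 fell and 0 rose. Tgfbr3, the co-receptor betaglycan, was at 12.8 ± 5.8 CPM in P301S mice and 24.4 ± 7.0 in the others (log2 fold change -0.94 ± 0.26, edgeR adjusted p = 0.0193). Tgfbrap1, which binds the receptors, was at 56.2 ± 11.9 and 75.9 ± 13.4 CPM (-0.42 ± 0.14, edgeR adjusted p = 0.0483). Among 13 SMAD regulators, 2 fell and 1 rose. Pmepa1, a feedback inhibitor that is also a target of the pathway, was at 530 ± 163 and 792 ± 143 CPM (-0.68 ± 0.18, edgeR adjusted p = 0.0198). The corepressor Tgif2 fell (-0.89 ± 0.27, edgeR adjusted p = 0.0287) and its relative Tgif1 rose (0.99 ± 0.30, edgeR adjusted p = 0.0288), from 11.5 to 21.0 CPM.

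Of 4 other SMADs, Smad6, an inhibitory SMAD, rose from 15.3 ± 7.7 to 24.4 ± 7.0 CPM (0.90 ± 0.25, edgeR adjusted p = 0.0208). Of the direct target genes, 8 of 16 passed the filter on low counts. Of these, Smad6 and Tgif1 rose, Pmepa1 fell, and Id2, an inhibitor of differentiation factors, was called at 4.42 CPM in mice without the transgene and 10.7 CPM in P301S mice (1.35 ± 0.45, edgeR adjusted p = 0.0462). Id2 held 0 to 7 UMIs in the former and 2 to 27 in the latter. The filter asked for at least 15.8 CPM in 2 mice, which Id2 reached in 2 P301S mice and 0 of the others, and Tgif1 in 12 P301S mice and 1 of the others. Both genes thus passed only through the group in which they were higher, and the counts of higher genes are no support for a direction of the list. Of the 5 genes of ligand latency and activation and the 7 activin and BMP receptors, 0 were called.

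Of the 7 microglial genes known to need TGF-beta, 2 fell and 0 rose. Their median log2 fold change was -0.50, against 0.0003 for all genes tested in the class. Sall1, a transcription factor of microglial identity, was at 205 ± 52 CPM in P301S mice and 267 ± 55 in the others (-0.50 ± 0.15, edgeR adjusted p = 0.0267), and Olfml3, a secreted protein, at 40.3 ± 19.9 and 68.0 ± 15.9 CPM (-0.83 ± 0.25, edgeR adjusted p = 0.0328). P2ry12, Tmem119, Gpr34, Fcrls and Mertk did not pass, with log2 fold changes from -0.92 to -0.13. Of the 9 microglial pathway calls, 0 remained in the 23 mice without Cgas+/- and Cgas-/- (where Id2 was below the filter on low counts) or within the 3.1.0 libraries, and within the 3.0.2 libraries 1 of 8 remained, that of Olfml3 (-1.12, edgeR adjusted p = 0.0496). In the 23 mice and the 3.1.0 libraries the log2 fold changes were -0.72 and -0.73 for Pmepa1, -0.93 and -0.70 for Olfml3, -0.43 and -0.48 for Tgfbrap1 and 1.02 and 0.83 for Tgif1. They were -0.61 and -0.90 for Tgif2, -0.76 and -0.58 for Tgfbr3, -0.17 and -0.15 for Sall1 and 0.36 and 0.55 for Smad6, and Id2 was at 0.54 in the 3.1.0 libraries. Within the 3.0.2 libraries the values were -0.69 for Pmepa1, -0.37 for Tgfbrap1, 1.20 for Tgif1 and -0.55 for Tgif2. There Tgfbr3 was at -1.17, Sall1 at -0.49 and Smad6 at 0.52. The macrophage and microglia marker sums given above moved with the same comparison.

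**Figure D5:**
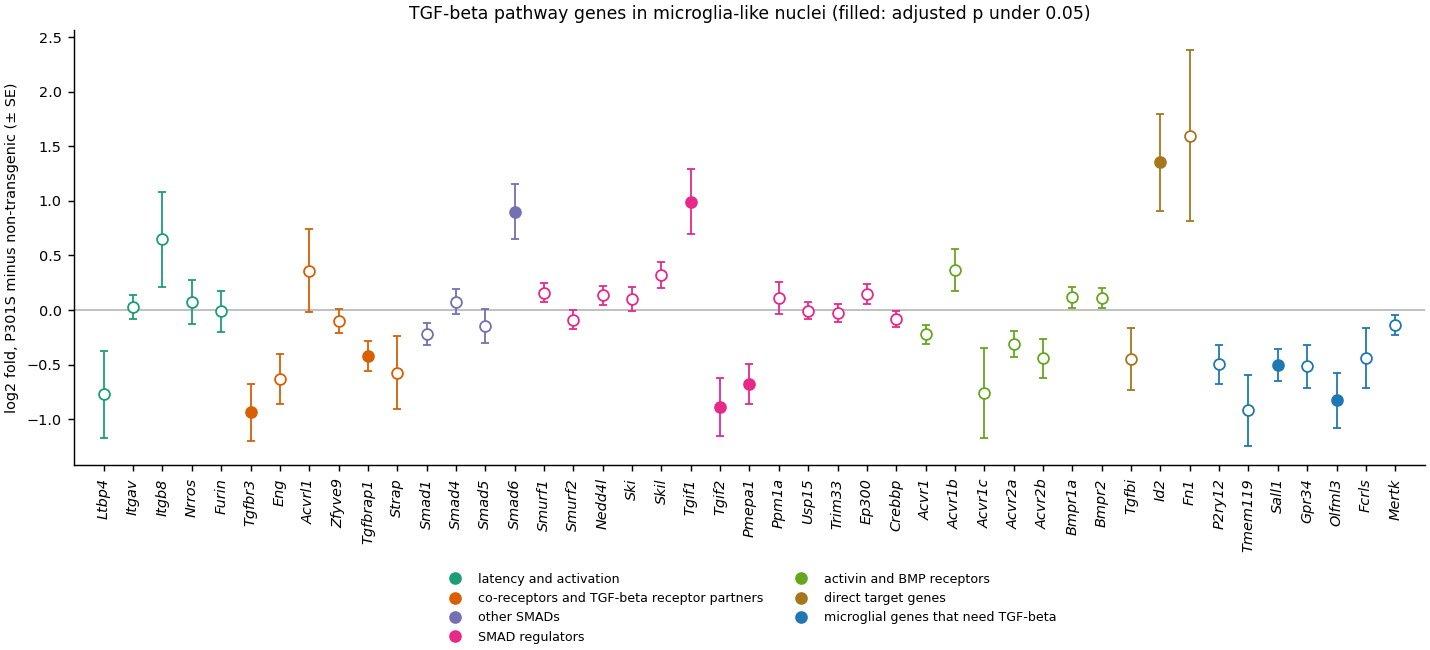
Log2 fold change ± SE of 45 pathway genes in microglia-like nuclei, all P301S mice minus all mice without the transgene, coloured by list (a gene of several lists is shown in the first). Filled points have an edgeR adjusted p under 0.05, and they run from -0.94 (Tgfbr3) to 1.35 (Id2), with all 7 genes of the last list below 0.

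The remaining 5 pathway calls were in other classes. In excitatory neuron-like nuclei, Ltbp1 and Ltbp3, which bind the latent ligand, had log2 fold changes of 1.64 ± 0.38 (edgeR adjusted p = 0.0271) and 0.84 ± 0.21 (edgeR adjusted p = 0.0408), and Id2 one of 0.96 ± 0.23 (edgeR adjusted p = 0.0332). With the hippocampal share as a term these were 0.89, 0.56 and 0.60 and none was called, and within the 3.1.0 libraries they were 0.73, -0.23 and 0.16. Within the 3.0.2 libraries Ltbp1 was at 1.94 (edgeR adjusted p = 0.0987), Ltbp3 at 1.19 (edgeR adjusted p = 0.0294) and Id2 at 1.32 (edgeR adjusted p = 0.0343). Ltbp1 ran from 0.904 to 34.1 CPM in P301S mice (median 4.37) and from 1.32 to 2.41 in the others, and without P301S Cgas+/- replicate 1 its log2 fold change was 1.32 (edgeR adjusted p = 0.0377). Ltbp1 was among the genes that most set apart an unnamed subcluster of 396 excitatory neuron-like nuclei. Of these nuclei, 93.9% came from P301S Cgas+/- replicate 1, and the part of this subcluster in the difference was not tested. In dentate granule neuron-like nuclei Pmepa1 rose (0.69 ± 0.16, edgeR adjusted p = 0.0447), from 20.3 ± 4.5 to 31.7 ± 12.6 CPM, the opposite direction to its change in microglia-like nuclei, although the difference between the classes was not tested. In astrocyte-like nuclei Cdkn1a, an inhibitor of the cell cycle, was at 0.511 CPM (0 to 4 UMIs per mouse) without the transgene and at 4.39 CPM (0 to 55 UMIs) in P301S mice. Its fitted log2 fold change was 3.65 ± 0.71 (edgeR adjusted p = 0.0237), over a group near 0, and it passed the filter (2.9 CPM in 2 mice) only through the P301S mice, with 11 of them and 0 of the others at that level. In the 23 mice none of these 5 was called, at 1.11 for Ltbp1, 0.14 for Ltbp3, 0.57 for Id2, 0.50 for Pmepa1 (edgeR adjusted p = 0.355) and 2.88 for Cdkn1a (edgeR adjusted p = 0.174). Within the 3.1.0 and 3.0.2 libraries Pmepa1 was at 0.51 and 0.44, neither called, and Cdkn1a at 3.71 (edgeR adjusted p = 0.290) and 3.35 (edgeR adjusted p = 0.0476). Without the filter on low counts, 11 of the 14 calls remained, among them the 3 genes that had passed through the P301S mice only (Tgif1 and Id2 in microglia-like and Cdkn1a in astrocyte-like nuclei), and Tgfbrap1, Ltbp3 and Pmepa1 in dentate granule neuron-like nuclei were lost. Of these 14 calls, 1 remained with the hippocampal share as a term, that of Smad6 (1.18), and the log2 fold changes of Cdkn1a in astrocyte-like nuclei (3.62) and Pmepa1 in dentate granule neuron-like nuclei (0.62) were then close to those without it. In microglia-like nuclei the values with this term were -0.99 for Tgif2, -0.77 for Tgfbr3, -0.68 for Olfml3, -0.50 for Pmepa1 and -0.38 for Tgfbrap1. They were -0.28 for Sall1, 0.72 for Tgif1 and 1.22 for Id2, so these calls were lost without a change of direction. With each mouse left out in turn, 0 of the 14 calls remained without Cgas-/- replicate 2 and 1, that of Pmepa1 in dentate granule neuron-like nuclei, without Cgas+/- replicate 2. The calls were kept in 6 (Tgfbrap1) to 24 of 27 such fits, or 12 of the 25 in which Id2 in microglia-like nuclei was tested, whose log2 fold change was 2.98 without Cgas-/- replicate 1. All 14 kept their direction in every such fit. In microglia-like nuclei the log2 fold changes ran from -0.77 to -0.58 for Pmepa1, -1.07 to -0.81 for Tgfbr3, -0.57 to -0.45 for Sall1 and 0.80 to 1.09 for Smad6. Cdkn1a in astrocyte-like nuclei ran from 3.30 to 4.39.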

How the data were processed

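Single-nucleus libraries were made by the study from frozen hippocampi (10x Chromium 3' v3, nuclei sorted on DAPI). The deposited matrices hold raw UMI counts per gene and barcode, produced by the authors using Cell Ranger on the mm10 genome. The labels give version 3.1.0 for every library, whereas the file headers give 3.0.2 for 12 and 3.1.0 for 15.

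From 241938 barcodes, those detecting 200 to 4000 genes with a mitochondrial share of 5% or less were retained, and those of highest doublet score were removed at 0.8% per 1000 barcodes of a library (16429 in all). Nuclei were clustered with scanpy 1.11.5 (2000 variable genes, 30 principal components, 15 neighbours, Leiden resolution 1) without the 8 members and the pathway lists except the microglial one. Clusters were named from marker lists, and the naming rule was revised once after cluster names had been seen. In the first clustering 15052 nuclei stayed unnamed. Among them was a cluster of 7271 nuclei, of which 59.9% came from P301S Cgas+/+ replicate 3. The members and lists were chosen with earlier results of these data known.

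For the levels by class and their order, a mouse entered a class with at least 20 nuclei, and a class was ranked with at least 20 mice. The group comparisons had no such minimum. Their dentate granule neuron-like class thus also held the mouse whose library had 17 of these nuclei. Neighbouring classes were compared by two-sided sign flips over mice of log2(CPM + 1) (100000 resamples), adjusted over 80 pairs. Groups were compared on counts summed per mouse and class by edgeR 4.0.16 (glmQLFTest, TMM, filterByExpr, sex as a term), adjusted over all genes of a class. The first 3 comparisons share a fit of 23 mice in 4 groups, and the last uses all 27, with equal weight for each group of a side. The procedure was tested on simulated data. DESeq2 1.42.0 and the settings of the closing section were alternatives. The leaving out of mice and of the filter for pathway genes was added after seeing the data. The study left the groups of 2 out of its own comparisons.

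All members are described in every class. An entry among the genes of similar pattern is not reported here. Fold changes are printed at an unadjusted p under 0.05, and for each member in its highest tested class. Pathway genes are named if called, or, in a class and comparison without a call, if among the 3 of smallest unadjusted p with that p under 0.01. Each mouse gave 1 library, so the p-values measure the spread between mice together with that of dissection and library preparation.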

Additional observations from a re-analysis of the deposited data

Results flagged for a closer look

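Within groups of 5 or 6 mice, 10 of 88 sets of member levels held 1 mouse far from the others by Dixon's test, in 8 different mice, and chance alone flags about 1 in 20 sets.

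In microglia-like nuclei, Tgfb1 was at 329 CPM in P301S Cgas+/- replicate 5, against 164 to 215 CPM in the other mice of the group. Smad2 there was at 122 CPM in P301S Cgas-/- replicate 2, against 88.4 to 98.9 CPM. In oligodendrocyte-like nuclei, Smad3 was at 48.0 CPM in P301S Cgas+/+ replicate 5, against 28.3 to 34.5 CPM, and Tgfbr1 was at 81.4 CPM in P301S Cgas-/- replicate 5, against 48.5 to 60.6 CPM. Tgfb2 in the same class was low in Cgas+/+ replicate 3, at 3.13 CPM against 8.01 to 9.15 CPM. That library had the lowest share of hippocampal subfields of its group, 19.7%.

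Tgfbr2 was flagged in 3 classes. It was high in astrocyte-like nuclei of P301S Cgas-/- replicate 5, at 59.7 CPM against 25 to 35.9 CPM. It was also high in dentate granule neuron-like nuclei of P301S Cgas+/- replicate 1, at 16.8 CPM against 3.68 to 7.91 CPM. In that library hippocampal subfields made up only 3.70% of excitatory neuron-like nuclei, so this level is coarse. Tgfbr2 was low in inhibitory neuron-like nuclei of P301S Cgas+/- replicate 5, at 4.79 CPM against 13.2 to 18.0 CPM. Tgfbr1 in inhibitory neuron-like nuclei was low in P301S Cgas+/- replicate 6, at 9.20 CPM against 10.8 to 11.1 CPM. Tgfb2 in dentate granule neuron-like nuclei was high in P301S Cgas+/+ replicate 4, at 109 CPM against 62.5 to 77.3 CPM.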

How the results depend on the processing

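No paired analysis was possible because the labels give no replicate numbers that match mice across groups. Of 1010 alternative values of 29 log2 fold changes, 964 kept their direction and side of the threshold, 12 lost and 29 gained a call, and 5 changed sign. Those 5 were Tgfb2 in excitatory neuron-like nuclei between all P301S mice and the others, at 0.040 with the hippocampal share as a term and 0.037 within the 3.1.0 libraries, Tgfbr1 there at 0.026 within the 3.1.0 libraries, and, with the share as a term, Tgfbr1 at 0.072 for P301S Cgas-/- and Tgfb2 at 0.049 for P301S Cgas+/-, each against P301S Cgas+/+. For these values the cause was not tested.

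The count of member calls stayed at 0 for both Cgas comparisons. For the transgene with both Cgas copies it was 1 without a filter on low counts (Tgfbr2 in microglia-like nuclei). Between all P301S mice and the others it was 7 by DESeq2, 1 with the hippocampal share as a term, 0 within either Cell Ranger version, 0 in the 23 mice without the small groups, and 1 to 5 with each mouse left out in turn (5 without Cgas+/+ replicate 3, 4 without P301S Cgas+/+ replicate 2, P301S Cgas+/+ replicate 4 or P301S Cgas+/- replicate 5, and 1 without Cgas+/- replicate 2 or Cgas-/- replicate 2). The share, version and 23-mouse settings were chosen after seeing the data. Tgfb1 in microglia-like nuclei ranged from -0.45 to -0.27 over all alternatives and, beside those version and 23-mouse settings, was not called without the filter (-0.34, edgeR adjusted p = 0.0627), without the sex term (-0.27, 0.111), with the hippocampal share (-0.30, 0.166), or without Cgas+/- replicate 2 (-0.29, 0.175) or Cgas-/- replicate 2 (-0.32, 0.0916). Tgfbr2 ranged from 0.35 to 0.60 and was not called without Cgas+/- replicate 2 (0.47, 0.0779). Of 80 pairs of neighbouring classes, 40 to 42 differed under every setting. Tgfb1 was below the filter on low counts in 5 of the 8 classes with all 27 mice and in 7 with the 23.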

Other observations

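Tgfbr2 in oligodendrocyte-like nuclei was nearly absent from 2 libraries and present in the others. It had 1 UMI (0.590 CPM, 1089 nuclei) in Cgas+/- replicate 1 and 14 UMIs (3.16 CPM, 1540 nuclei) in P301S Cgas+/- replicate 3, and it was at 65.9 to 213 CPM in the other 25 libraries. In microglia-like nuclei of the same mice, Tgfbr2 was at 649 and 989 CPM, and in astrocyte-like nuclei at 14.7 and 57.8 CPM. In the oligodendrocyte-like nuclei of these mice, Smad7 was at 338 and 505 CPM, Smad3 at 17.7 and 65.3 CPM and Tgfbr1 at 53.1 and 72.3 CPM, and the values of Smad7 and Smad3 in P301S Cgas+/- replicate 3 were the highest of all 27 libraries. Both libraries were from males labelled Cgas+/-, and the pattern was noticed after the values had been seen, so no test was made. In the fit of all mice, the log2 fold change of Tgfbr2 in this class had an SE of 0.45.

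Other pathway genes were named in classes without a call, as the 3 of smallest unadjusted p under 0.01, and none of them passed the adjusted threshold. For the transgene with both Cgas copies, microglia-like nuclei gave Tgfbi, an extracellular matrix protein induced by TGF-beta, at a log2 fold change of -1.22 (edgeR adjusted p = 0.0975), the activin receptor Acvr2a at -0.52 (0.117) and Olfml3 at -1.10 (0.131). Pmepa1 was at 0.69 in dentate granule neuron-like nuclei (edgeR adjusted p = 0.980) and at 0.69 in inhibitory neuron-like nuclei (1.0), with Trim33, a ligase that acts on SMAD4, at 0.22 in the former (1.0) and the matrix protein Fn1 at -1.40 in the latter (1.0). Cdkn1a was at 3.01 in astrocyte-like nuclei (edgeR adjusted p = 0.240) and at 3.46 in oligodendrocyte-like nuclei (0.679), over low Cgas+/+ means of 0.605 and 1.77 CPM.

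Between all P301S mice and the others, Cdkn1a in oligodendrocyte-like nuclei was at 4.25 (edgeR adjusted p = 0.0552), Ltbp4 there at -0.55 (0.182), the BMP receptor Bmpr1b in CA1 neuron-like nuclei at -2.40 (0.125) and the SMAD corepressor Ski in oligodendrocyte progenitor-like nuclei at 0.34 (0.177). The Cdkn1a value stands over a group near 0, at 1.48 CPM (0 to 5.23) without the transgene, against 1.77 to 57.8 CPM in P301S mice.

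Between P301S Cgas-/- and P301S Cgas+/+, excitatory neuron-like nuclei gave Nrros, which holds latent TGF-beta at the cell surface, at -0.91 (edgeR adjusted p = 0.190). Id2 there was at 0.94 (0.198) and Ltbp3 at 0.84 (0.204), and CA1 neuron-like nuclei gave Nrros at -0.77 (1.0). The mean levels of Nrros were low, at 3.72 and 6.49 CPM in excitatory and 5.46 and 9.34 CPM in CA1 neuron-like nuclei. Whether these UMIs came from the neurons was not tested. Trim33 in microglia-like nuclei was at -0.31 (edgeR adjusted p = 1.0), Tgfbr3 in oligodendrocyte-like nuclei at -0.41 (1.0), and the type I receptor Acvr1 and Bmpr1b in inhibitory neuron-like nuclei at -0.39 (0.617) and -1.13 (0.642). Between P301S Cgas+/- and P301S Cgas+/+, excitatory neuron-like nuclei gave Ltbp1 at 2.12 (edgeR adjusted p = 0.171, with a median of 6.03 and a highest value of 34.1 CPM in P301S Cgas+/-, and a log2 fold change of 1.49 without its replicate 1), the integrin subunit Itgav at 0.71 (0.178) and Ltbp3 at 0.76 (0.237), and inhibitory neuron-like nuclei gave Itgav at 0.73 (0.534), Acvr1 at -0.36 (0.534) and Ltbp2 at 1.40 (0.557). Ltbp1 in oligodendrocyte-like nuclei was at 1.20 (edgeR adjusted p = 1.0). The share of hippocampal subfields among excitatory neuron-like nuclei differed between these groups, and its part in these values was not tested. The part of the subcluster set apart by Ltbp1, found almost only in P301S Cgas+/- replicate 1, was not tested either.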
